A study of Sus scrofa with 15 samples.

Results

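The S100 proteins and annexins described here are 10 genes of calcium-binding proteins, *S100A4*, *S100A6*, *S100A8*, *S100A9*, *S100A10*, *S100A11*, *ANXA1*, *ANXA2*, *ANXA5* and *ANXA6*, out of 29886 genes in a table of RNA counts from porcine natural killer (NK) cells. They were chosen by gene symbol with results of these data known, so their differences between populations are given as descriptions with standard errors, and no p-value is given for them. All 10 symbols were found, 8 passed the filter on low counts and 2, *S100A8* and *S100A9*, had 0 counts in every library. Counts were taken from the 3′ end of transcripts, so that a count does not grow with transcript length. Levels of different genes are set side by side on this basis, but how fully the reads of each gene were assigned to it was not tested. Levels are given as counts per 1000000 counts (CPM), scaled by the adjusted library size.

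The study compared NK cells of the blood with the NK cells that reside in the liver. From each of 5 pigs, 6 months old, 3 populations were sorted as CD3- CD172a- CD8α+ cells: the CD8αhigh NK cells of blood (labelled blood NK, here cNK cells), the CD8αhigh NK cells flushed from the liver (conventional liver NK) and the CD8αdim NK cells from the same flush (liver resident NK, here lrNK cells). No treatment or genetic change was applied, and the 15 libraries held between 2003499 and 5680221 counts. The liver cells are those that a perfusion through the portal vein released, and cells that stayed in the tissue were not sampled. Differences are log2 fold changes from edgeR's quasi-likelihood fit of all 15 libraries, with the standard error (SE) and, in places, the 95% interval, and for genes outside the 10 they are given with a p adjusted by the Benjamini-Hochberg method over 10939 genes. This fit has no term for the pig, so SE, interval and p leave out the pairing of libraries by pig. A fit with the pig as a block is given as an alternative.

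S100 proteins are small dimers that bind calcium through EF-hand loops and then dock onto partner proteins. Annexins bind calcium in another way, through repeats that attach them to acidic phospholipids on the inner face of membranes. Some members of the families bind each other: S100A10, which has lost the ability to bind calcium, joins ANXA2 in a heterotetramer at the plasma membrane, and S100A11 can pair with ANXA1. In lymphocytes, S100A4 and S100A6 are known as transcripts of effector and memory cells, S100A4 acts on non-muscle myosin during migration, and S100A8 and S100A9 form calprotectin, the abundant calcium-binding protein of neutrophils and monocytes.

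The sorted cells carried the transcripts of NK cells in all 15 libraries. The summed level of 11 NK genes ran from 4502 to 6799 CPM in cNK cells, from 4952 to 5744 CPM in CD8αhigh liver NK cells and from 3520 to 6565 CPM in lrNK cells. The median sum was 5410 CPM in cNK, 5682 CPM in CD8αhigh liver NK and 4749 CPM in lrNK cells. Single genes of this list went both ways. *NCR1*, which encodes NKp46, had 50.8 ± 29.4 CPM (SD, n = 5) in cNK cells and 282 ± 83.3 CPM in lrNK cells, in which it rose (log2 fold change 2.47, SE 0.53, adjusted p = 0.00184 by edgeR, higher in 5 of 5 pigs). The paper reports low expression of *GNLY*, another gene of the list, in lrNK cells. Transcripts of B cells moved with the populations: the sum of 6 marker genes ran from 51.9 to 128 CPM in cNK cells, from 17.9 to 59.7 CPM in CD8αhigh liver NK cells and from 258 to 707 CPM in lrNK cells, with *CD79A* at 0 in every library. The sum of 7 T cell genes, nearly all of it *CD3G*, ran the other way, from 646 to 1265 CPM, from 719 to 1100 CPM and from 117 to 595 CPM. The part of these B and T cell transcripts in the differences below was not tested. In RNA of bulk sorted cells, fewer cells that carry a transcript and less of it per cell cannot be told apart. On the second principal component, which held 5.87% of the variance, the lrNK library of pig 3 stood at 35.2 and the other lrNK libraries between -16.0 and -3.16, so its values are pointed out where they matter.

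*S100A4* and *S100A6* had the largest differences of the 10 genes between lrNK cells and the other 2 populations. *S100A4* had 539, 443, 444, 583 and 480.0 CPM in the cNK cells of pigs 1 to 5, 399.9, 383, 453, 371 and 549 CPM in their CD8αhigh liver NK cells and 14.5, 20.6, 18.5, 7.30 and 7.31 CPM in their lrNK cells. Every lrNK library therefore lay below every other library, and the raw counts behind the lrNK levels were 26 to 43. Against CD8αhigh liver NK cells, a comparison between cells of the same liver flush, *S100A4* was lower in lrNK cells by a log2 fold change of -5.03 (SE 0.26, 95% interval -5.58 to -4.48). *S100A6*, a nearby gene whose product binds the calcyclin-binding protein CACYBP, had 403, 372, 405, 331 and 417 CPM in cNK cells, 305, 389, 437, 412 and 551 CPM in CD8αhigh liver NK cells and 4.15, 12, 15.6, 7.02 and 3.66 CPM in lrNK cells. Its log2 fold change against CD8αhigh liver NK cells was -5.69 (SE 0.31, 95% interval -6.33 to -5.05), again with no overlap. In the lrNK libraries the transcripts were low but had reads in all 5 pigs, *S100A6* with 10 to 32 counts, and each varied by several-fold between pigs. The paper reports a sort of lrNK cells that was not fully pure. The part of other sorted cells in these few reads was not tested.

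**Figure D1:**
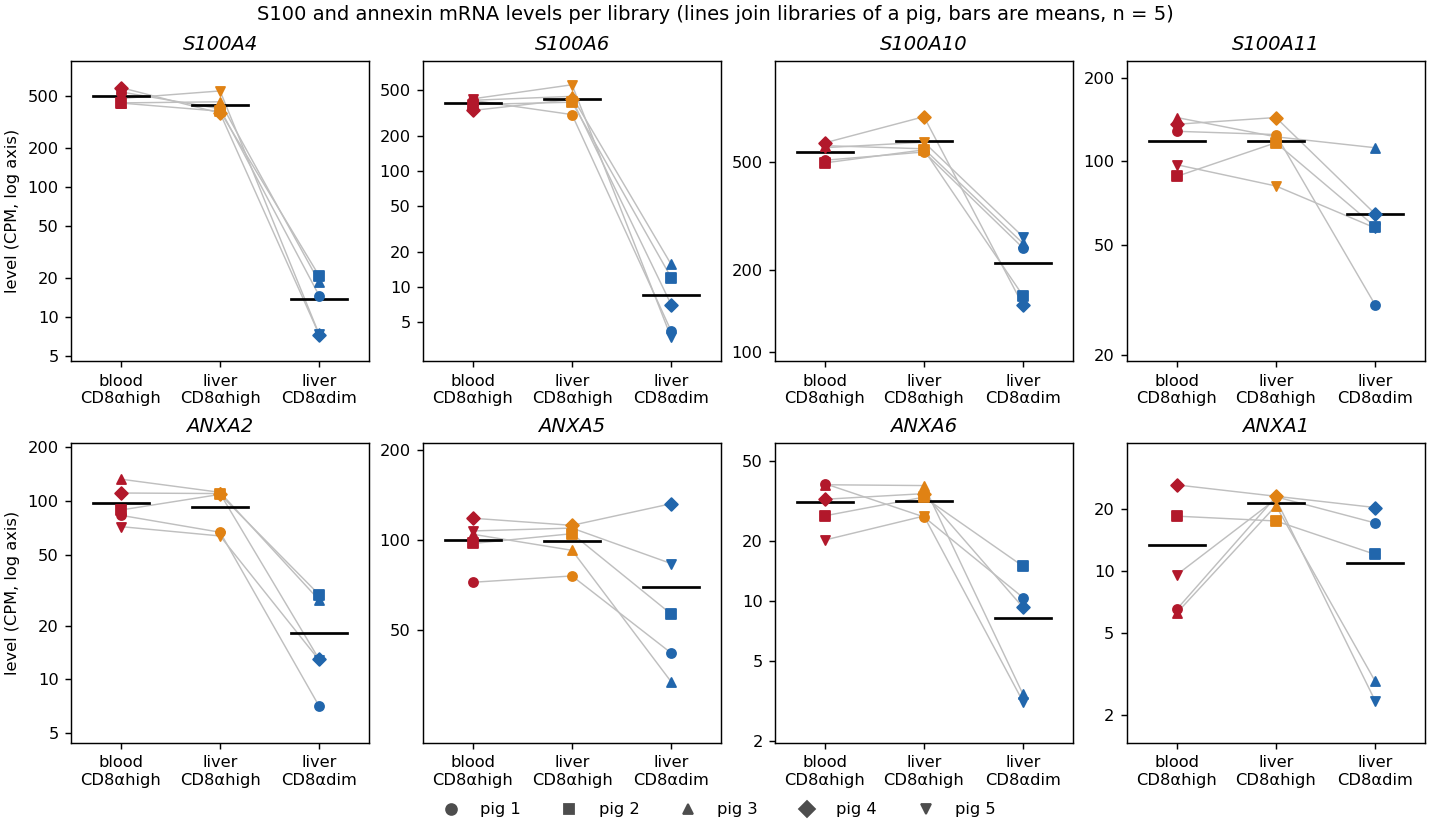
Level of each of the 8 detected genes (CPM, log axis, own scale in each panel) in blood CD8αhigh, liver CD8αhigh and liver CD8αdim NK cells, with a symbol for each pig, grey lines joining the libraries of a pig and black bars at the mean (n = 5). *S100A4*, *S100A6*, *S100A10*, *ANXA2* and *ANXA6* in liver CD8αdim cells lie below all other libraries, while *S100A11*, *ANXA5* and *ANXA1* overlap.

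*S100A10*, the partner of ANXA2, was the most abundant of the 10 transcripts in all 3 populations by its mean level. It had 506, 495, 572, 586 and 563 CPM in cNK cells, 542, 552, 557, 731 and 589 CPM in CD8αhigh liver NK cells and 241, 161, 250.4, 148 and 265 CPM in lrNK cells. The lrNK libraries thus lay below all others, but far above the level of *S100A4* or *S100A6* in the same libraries. *S100A10* was 2.55-fold lower in lrNK than in cNK cells (log2 fold change -1.35, SE 0.17, 95% interval -1.70 to -1.003) and 2.79-fold lower than in CD8αhigh liver NK cells (log2 fold change -1.48, SE 0.17). *ANXA2*, the calcium-dependent membrane binder of the pair, had 82.9, 88.8, 132, 111 and 71.6 CPM in cNK cells, 66.6, 109, 112, 109.8 and 63.5 CPM in CD8αhigh liver NK cells and 7.06, 29.8, 27.8, 12.9 and 12.8 CPM in lrNK cells. Its groups did not overlap either, with a log2 fold change of -2.45 (SE 0.32, 95% interval -3.12 to -1.78) against cNK cells and of -2.37 (SE 0.32) against CD8αhigh liver NK cells.

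The balance of reads between these partners differed between populations. For each read of *ANXA2* there were 4.33 to 7.85 reads of *S100A10* in cNK libraries and 5.00 to 9.27 in CD8αhigh liver NK libraries. In lrNK libraries there were 34.1, 5.40, 9.02, 11.5 and 20.7 reads in pigs 1 to 5. The lrNK cells of pigs 1, 4 and 5 were thus above the highest ratio of any other library, those of pig 3 lay inside the range of CD8αhigh liver NK cells and those of pig 2 inside both ranges. The ratio of pig 1 rested on 17 reads of *ANXA2*.

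*S100A11*, which pairs with ANXA1 in the cornified layer of the skin and takes part in membrane repair with ANXA2, differed less. It had 128, 88.3, 144, 136 and 97.2 CPM in cNK cells, 125, 117, 123, 144 and 81.4 CPM in CD8αhigh liver NK cells and 30.3, 58.1, 112, 64.6 and 57.5 CPM in lrNK cells. The level of each pig was lower in lrNK cells than in its other 2 populations, but the groups overlapped, because the lrNK level of pig 3 lay among those of the other populations. The log2 fold change was -0.89 (SE 0.26, 95% interval -1.42 to -0.35) against cNK cells and -0.88 (SE 0.26) against CD8αhigh liver NK cells. Against cNK cells it became -0.67 without pig 1, -0.83 without pig 4 and -0.90 without pig 5, and in each of these fits *S100A11* no longer passed an adjusted p of 0.05. Against CD8αhigh liver NK cells the same happened without pig 1 (-0.68), pig 2 (-0.85) or pig 4 (-0.79) and in a fit of only these 2 populations (-0.88). As *S100A11* was chosen with results known, a pass or a miss is no test of it.

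The remaining annexins split into a lower gene and 2 genes whose groups overlapped. *ANXA6*, the annexin with 2 copies of the membrane-binding core, had 38.5, 26.6, 38.0, 32.2 and 20.1 CPM in cNK cells, 26.2, 33.0, 37.6, 34.3 and 26.5 CPM in CD8αhigh liver NK cells and 10.4, 14.9, 3.41, 9.27 and 3.13 CPM in lrNK cells. The lrNK libraries, with 7 to 33 counts each, lay below all others, with a log2 fold change of -1.93 (SE 0.37) against cNK cells and of -1.95 (SE 0.37) against CD8αhigh liver NK cells. *ANXA5*, the phosphatidylserine binder used as a reagent to stain dying cells, had 72.4, 97.6, 105, 119 and 107 CPM in cNK cells, 76.0, 105, 92.6, 112 and 109.9 CPM in CD8αhigh liver NK cells and 41.9, 56.6, 33.6, 133 and 83.6 CPM in lrNK cells. Its lrNK level was the lowest of the pig's 3 populations in 4 pigs and the highest in pig 4, whose library had the highest *ANXA5* level of all 15. The log2 fold change of *ANXA5* was -0.51 (SE 0.28, 95% interval -1.09 to 0.07) against cNK cells and -0.50 (SE 0.28) against CD8αhigh liver NK cells, and it did not pass an adjusted p of 0.05 in either comparison. Without pig 4 the values became -0.81 and -0.82, and *ANXA5* passed as lower in both. As *ANXA5* was chosen with results known, a pass or a miss is no test of it.

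*ANXA1*, known as a glucocorticoid-induced inhibitor of inflammation that acts through formyl peptide receptors, was the least abundant annexin of the 4 in CD8αhigh cells and rested on 6 to 133 counts per library. It had 6.50, 18.4, 6.24, 26.0 and 9.55 CPM in cNK cells, 22.8, 17.4, 20.6, 22.9 and 22.2 CPM in CD8αhigh liver NK cells and 17.0, 12, 2.92, 20.2 and 2.35 CPM in lrNK cells. The levels were close together in CD8αhigh liver NK cells (21.2 ± 2.31 CPM) and spread in the other 2 populations (13.3 ± 8.62 and 10.9 ± 8.10 CPM). The log2 fold change was -0.28 (SE 0.52) for lrNK against cNK cells, and -0.95 (SE 0.52, 95% interval -2.03 to 0.12) for lrNK against CD8αhigh liver NK cells, with lower lrNK levels in 5 of 5 pigs in the latter.

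*S100A8* and *S100A9*, the subunits of calprotectin, had 0 counts in all 15 libraries, as did *S100A12*, the third S100 gene of neutrophils and monocytes. A count of 0 allows up to 3 counts, which is 0.517 to 1.46 CPM depending on the library. This limit covers counting error alone, and a gene at 0 in every library may also be one whose reads were not assigned to it: *CD79A* was at 0 in all libraries while *MS4A1*, another B cell gene, was at 267 ± 134 CPM in lrNK cells. Of the myeloid marker genes, *CSF1R*, *CD163*, *FCN1*, *MPO* and *CEBPB* had 0 counts everywhere. *LYZ*, the lysozyme of monocytes and neutrophils, had 16, 9, 0, 91 and 24 counts in the lrNK cells of pigs 1 to 5, at most 3 counts in each CD8αhigh liver NK library and 0 to 23 counts in cNK cells. It rose in lrNK against CD8αhigh liver NK cells (adjusted p = 0.0272 by edgeR, higher in 4 pigs) and did not pass against cNK cells (adjusted p = 0.305). *VCAN*, which did not pass the filter, was at 4.73 ± 6.14 CPM in lrNK cells, 2.35 ± 1.14 CPM in CD8αhigh liver NK cells and 1.57 ± 1.80 CPM in cNK cells. The sum of 16 myeloid genes ran from 113 to 196 CPM in cNK cells, from 131 to 198 CPM in CD8αhigh liver NK cells and from 148 to 251 CPM in lrNK cells, and most of it was *TYROBP*, the adaptor DAP12 that NK cells use themselves. The sums of Kupffer cell, hepatocyte and endothelial genes did not pass 5.02, 29.7 and 18.5 CPM in any library, and 6 platelet and erythroid genes summed to between 76.4 and 400.4 CPM.

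**Figure D2:**
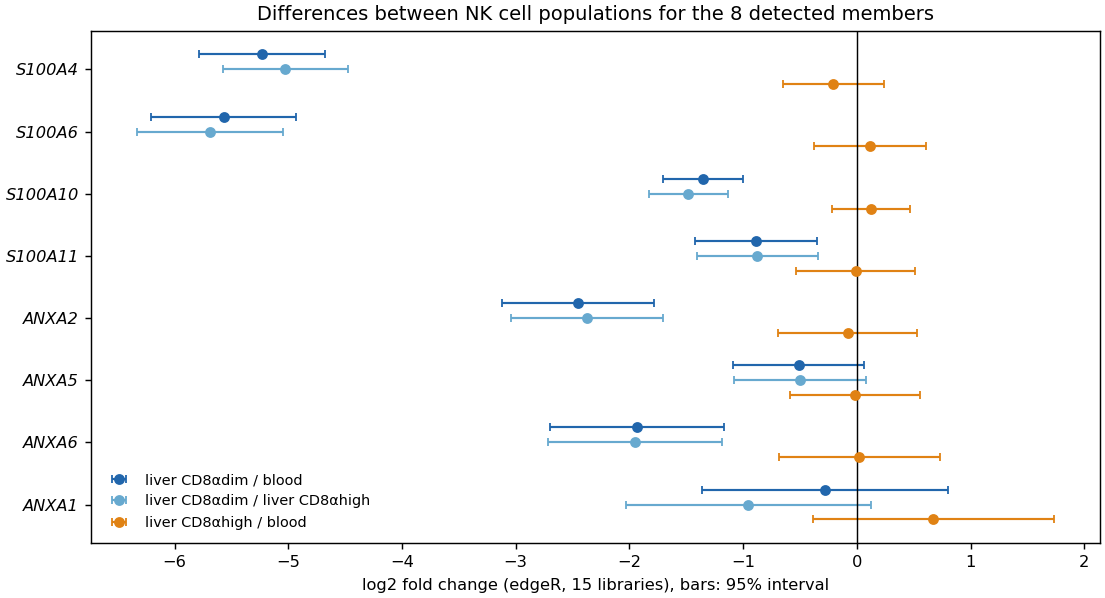
Log2 fold change of the 8 detected genes (horizontal axis) with its 95% interval for lrNK against cNK cells, lrNK against CD8αhigh liver NK cells and CD8αhigh liver NK against cNK cells. The values of the first 2 comparisons run from near -5.7 for *S100A6* to above -1 for *S100A11*, *ANXA5* and *ANXA1*, and those of the third lie between -0.21 and 0.67.

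Of the 8 genes that passed the filter, 6 passed an adjusted p of 0.05 as lower in lrNK than in cNK cells and 0 as higher, where 9.6% of all genes tested were lower, 8.62% higher and 18.2% different in either direction. Against CD8αhigh liver NK cells the counts were again 6 lower and 0 higher, with 7.68% of all genes lower, 6.96% higher and 14.6% different. The groups of 5 genes did not overlap in either comparison, where 7.33% and 6.67% of all genes lay wholly lower. The 10 genes were chosen with these comparisons known, so nothing is read from these shares, and the 2 comparisons share the lrNK libraries.

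The blood and liver CD8αhigh cells were set beside each other in the same way. Of the 8 genes, 0 passed the adjusted p in edgeR, where 0.064% of all genes differed, 0 had an unadjusted p under 0.05 and 0 passed in DESeq2. The number of all genes that differed depended on the fit, with 7 in edgeR, 24 in DESeq2 and 0 in edgeR without pig 2. The log2 fold change of CD8αhigh liver NK against cNK cells was -0.21 for *S100A4* (95% interval -0.65 to 0.24), 0.12 for *S100A6* (-0.37 to 0.61) and 0.13 for *S100A10* (-0.21 to 0.47). All 3 intervals spanned 0, and their bounds lay nearer to 0 than the intervals of the same genes in lrNK cells. The interval was widest for *ANXA1* (0.67, -0.39 to 1.73), which had low counts.

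The 10 genes together gave 1788 ± 109 CPM in cNK cells, 1806 ± 174 CPM in CD8αhigh liver NK cells and 407 ± 43.4 CPM in lrNK cells (SD, n = 5), and their make-up differed. The S100 genes among the 10 summed to 1546 ± 88.7, 1562 ± 161 and 299.7 ± 67.4 CPM and the annexins among the 10 to 242 ± 40.4, 244 ± 36.1 and 107 ± 42.3 CPM. For each annexin read in these sums there were thus 6.53, 6.50 and 3.29 S100 reads on average, and in lrNK libraries from 1.30 to 5.86. Abundant genes of both families outside the 10, such as *ANXA11* and *S100A1*, are not in these sums. The sums and their ratio therefore hold for the chosen genes and not for the families. *S100A4* made up 27.8% of the reads of the 10 genes in cNK cells, 23.9% in CD8αhigh liver NK cells and 3.42% in lrNK cells. *S100A10* made up 30.4%, 33.0% and 52.3%, with 65.8%, 44.1%, 53.9%, 36.9% and 60.9% in the lrNK cells of pigs 1 to 5. *ANXA5* made up 5.60%, 5.48% and 17.3%, and reached 33.0% in the lrNK cells of pig 4. A share rises when other genes of the sum are lower, and the levels above show that neither *S100A10* nor *ANXA5* had a higher mean CPM in lrNK cells.

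**Figure D3:**
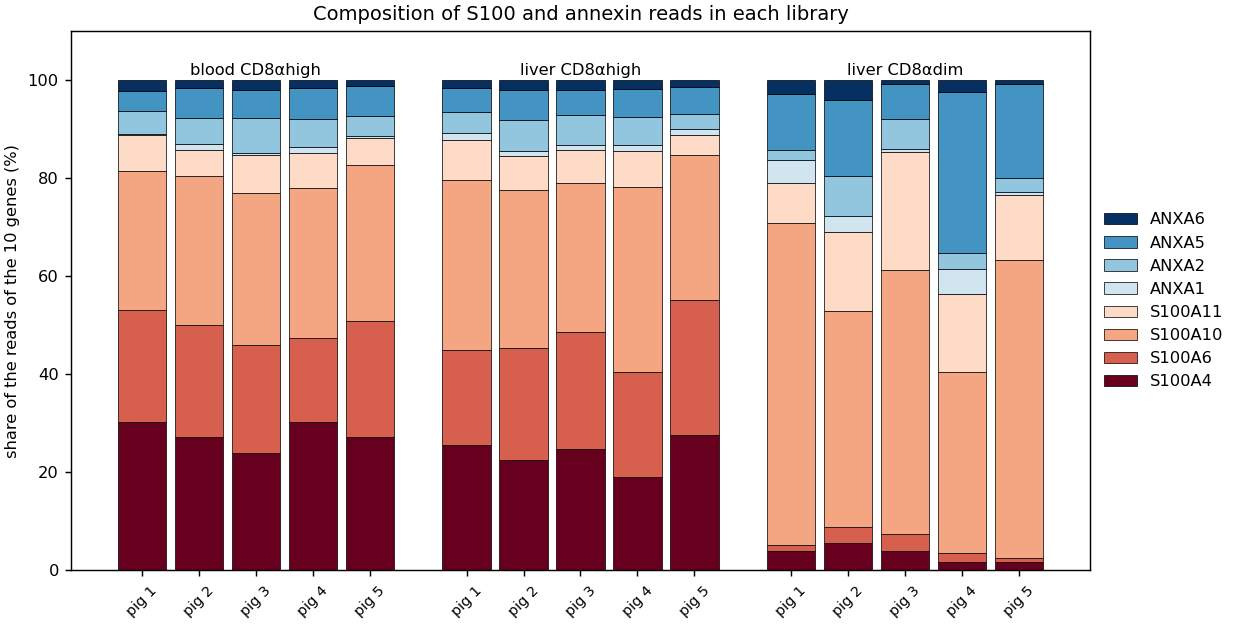
Share of each of the 8 detected genes in the reads of the 10 genes (percent, vertical axis) in each of the 15 libraries, grouped by population, with pigs 1 to 5 along the horizontal axis. *S100A4* and *S100A6* fill a large part of the bars of both CD8αhigh populations and under 10% of those of lrNK cells, in which *S100A10* is the largest part in every pig.

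The other genes of both families, 22 in a list that was written with results of these data known, are described next. Of 20 in the table, 8 had 0 counts everywhere and 7 were tested, and 3 fell and 1 rose in lrNK against cNK cells, which is 57.1% against 18.2% of all genes. *S100A1*, an S100 protein known from heart muscle, had 120.1 to 185 CPM in cNK cells, 102 to 243 CPM in CD8αhigh liver NK cells and 10.4 to 23.0 CPM in lrNK cells. It fell in lrNK cells against both, with log2 fold changes of -3.34 (SE 0.30, adjusted p = 8.07e-08) and -3.30 (SE 0.30, adjusted p = 9.98e-08). *S100B*, best known from glia, was at 122 ± 43.2 CPM in cNK cells and 22.5 ± 7.71 CPM in lrNK cells and fell with a log2 fold change of -2.42 (SE 0.28, adjusted p = 1.53e-06). *S100A13*, which takes part in the release of FGF1, had 43.8 ± 6.49 CPM in cNK cells and fell to 7.04 ± 4.82 CPM in lrNK cells (log2 fold change -2.62, SE 0.37, adjusted p = 2.77e-05). *S100A1* and *S100A13* overlap by 5026 bases on the chromosome and the strand setting of the counting is not given in the sources used here, so reads could have been assigned to either.

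No annexin outside the 10 genes passed as lower. *ANXA11*, an annexin with a long disordered tail, was the most abundant annexin of these cells with 343 ± 21.7 CPM in cNK, 301 ± 29.9 CPM in CD8αhigh liver NK and 367 ± 103 CPM in lrNK cells (lrNK against cNK log2 fold change 0.09, adjusted p = 0.756). *ANXA7* was at 65.2 ± 13.6, 56.7 ± 8.46 and 77.0 ± 19.5 CPM (log2 fold change 0.24, adjusted p = 0.490). *ANXA9* rose from 7.83 ± 0.947 CPM in cNK cells to 36.7 ± 8.69 CPM in lrNK cells (log2 fold change 2.22, SE 0.37, adjusted p = 1.70e-04), and it was at 10.8 ± 7.25 CPM in CD8αhigh liver NK cells. *ANXA9* shares 6921 bases with *MINDY1*, a gene named here after its values were seen, which had 5.20 ± 2.22 CPM in cNK cells and 34.6 ± 8.56 CPM in lrNK cells, so the source of these reads cannot be told apart. *S100A14* was at 3.92 ± 4.24 and 0.810 ± 1.34 CPM and did not pass the test (adjusted p = 0.269). For CD8αhigh liver NK against cNK cells, 0 of the 7 genes passed in edgeR, 0 had an unadjusted p under 0.05 and 0 passed in DESeq2.

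The S100A genes lie together in the assembly Sscrofa11.1. *S100A4* lies at chr4:96088102-96091160 and *S100A6* at chr4:96098264-96099686, with *S100A8* at chr4:96209670-96210603 and *S100A9* at chr4:96236114-96238989. *S100A11* and *S100A10* lie farther along, at chr4:97233833-97239081 and chr4:97261752-97272517. Between *S100A1* and *S100A10*, a stretch of 1265492 bases, 15 S100A genes are listed, of which 7 were tested and 6 passed as lower in lrNK than in cNK cells, among them 4 of the 10 chosen genes, where 9.6% of all genes tested were lower. As 4 of the 6 were chosen with these results known and the other 2, *S100A1* and *S100A13*, overlap, nothing is read from this share. Another 35 genes are listed in this stretch and 0 of them passed the filter on low counts, so that the stretch held no other gene to compare with. The annexins are scattered: *ANXA1* lies at chr1:226414200-226431963, *ANXA2* at chr1:111588721-111635064, *ANXA5* at chr8:102387833-102420868 and *ANXA6* at chr16:71857229-71913723. No gene in the coordinate table overlaps any of the 10.

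Among the proteins that S100 proteins and annexins bind or act with, some rose and some fell. Of 34 such genes in a list, 21 were tested, and 4 rose and 4 fell in lrNK against cNK cells, which is 38.1% against 18.2% of all genes. The median log2 fold change of the list was -0.13, beside 0.01 over all genes. *AHNAK*, the giant scaffold that S100A10 and ANXA2 hold at the membrane, had 859 to 1546 CPM in cNK cells, 667 to 872 CPM in CD8αhigh liver NK cells and 106 to 299 CPM in lrNK cells. It fell with a log2 fold change of -2.58 (SE 0.25, adjusted p = 1.51e-07) against cNK cells and of -2.10 (SE 0.24, adjusted p = 2.22e-06) against CD8αhigh liver NK cells. *CAPN2*, the catalytic subunit of the calcium-dependent protease m-calpain, fell from 240 ± 30.0 CPM in cNK cells to 23.1 ± 11.3 CPM in lrNK cells (log2 fold change -3.39, SE 0.34, adjusted p = 2.35e-07). Its regulatory subunit *CAPNS1* went from 175 ± 35.3 to 104 ± 28.7 CPM (log2 fold change -0.75, SE 0.19, adjusted p = 0.00802). *MYOF*, the membrane fusion and repair protein myoferlin, fell with a log2 fold change of -2.59 (SE 0.38, adjusted p = 3.58e-05), to 7.53 ± 4.79 CPM from 46.2 ± 14.7 CPM.

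The 4 genes of the list that rose in lrNK cells have other roles. *RASA1*, a Ras GTPase-activating protein that binds ANXA6, was at 113 ± 34.8 CPM in cNK cells and 285 ± 57.4 CPM in lrNK cells (log2 fold change 1.33, SE 0.20, adjusted p = 4.26e-05). *PLA2G4A*, the cytosolic phospholipase A2 that annexins inhibit, rose by a log2 fold change of 2.87 (SE 0.64, adjusted p = 0.00260), from 2.85 ± 3.32 to 21.4 ± 4.62 CPM, on few counts in cNK cells. *HLTF*, a chromatin remodeller, rose from 137 ± 32.0 to 238 ± 58.1 CPM (adjusted p = 0.00451) and *CTSB*, the protease cathepsin B, from 76.4 ± 14.4 to 138 ± 39.5 CPM (adjusted p = 0.00578). The other 13 tested genes did not pass, among them *CACYBP*, *MYH9* and *EZR*. Against CD8αhigh liver NK cells 4 rose and 5 fell, which is 42.9% against 14.6% of all genes, and the fifth was *TPM4*, a tropomyosin (log2 fold change -0.94, adjusted p = 0.0125, and -0.77 with adjusted p = 0.0867 without pig 1). These counts depended on single pigs, with 1 higher and 4 lower without pig 5 and 1 higher and 5 lower without pig 4. *CAPNS1*, *CTSB*, *HLTF* and *PLA2G4A* each missed the threshold in this comparison without pig 5 (log2 fold changes -0.68, 0.65, 0.66 and 2.16). *CAPNS1* also missed it without pig 1 (-0.47), 2 (-0.64) or 3 (-0.66), *HLTF* without pig 3 (0.50) or 4 (0.57) and *PLA2G4A* without pig 4 (1.97). *CTSB* missed it as well without pig 1 (0.75), 2 (0.60) or 4 (0.72) and in a fit of only these 2 populations (0.66). Without the lrNK library of pig 3, *HLTF* (0.49) and *CTSB* (0.49) missed it too. Between the CD8αhigh populations 0 of 21 passed in edgeR, 1 had an unadjusted p under 0.05 and 0 passed in DESeq2.

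**Figure D4:**
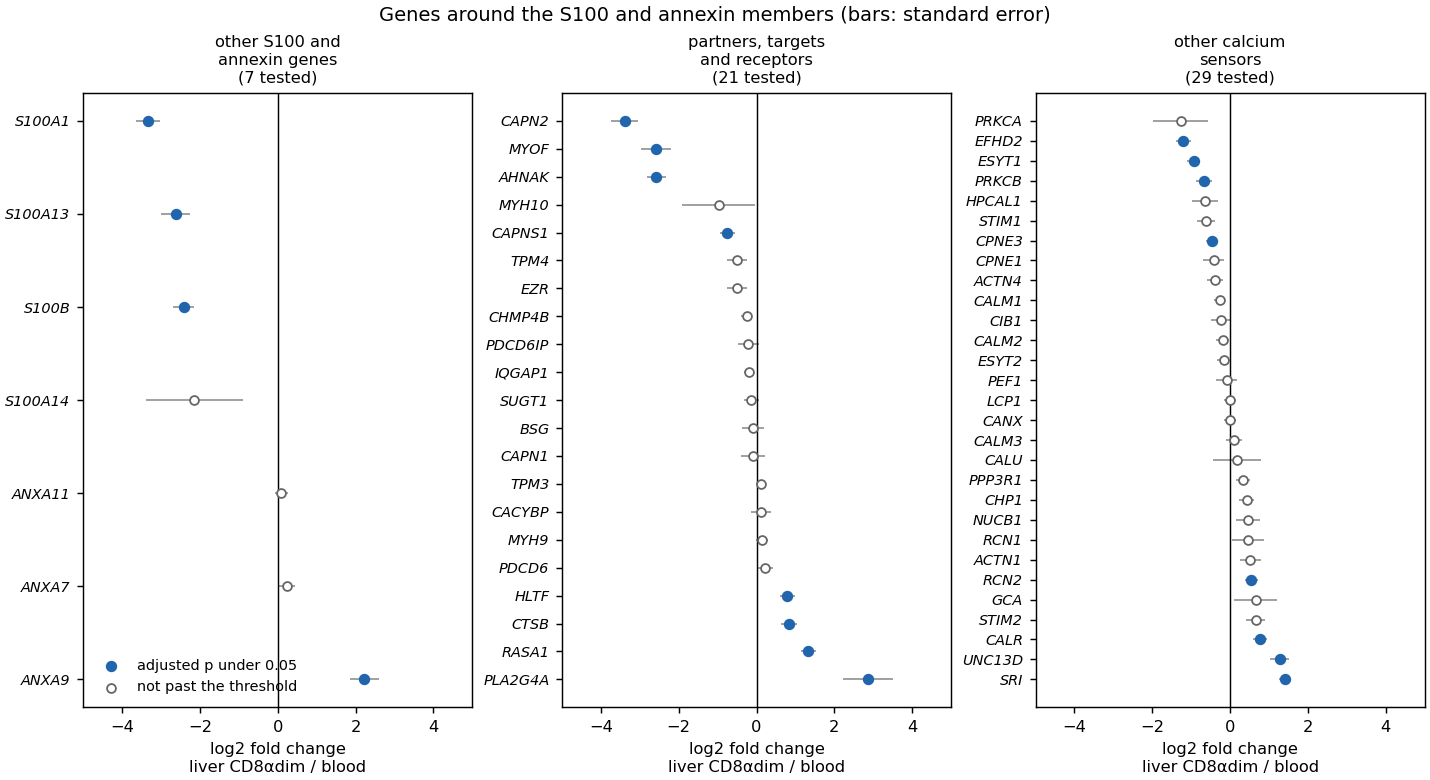
Log2 fold change of lrNK against cNK cells (horizontal axis) with its standard error for the tested genes of 3 lists: 7 other S100 and annexin genes, 21 partners, targets and receptors and 29 other calcium sensors. Filled points passed an adjusted p of 0.05, and they lie on both sides of 0 in each panel.

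Most other calcium sensors and calcium-binding membrane proteins did not pass the test. Of 29 tested, 4 rose and 4 fell in lrNK against cNK cells, which is 27.6% against 18.2% of all genes, and the median log2 fold change of the list was -0.0031. *SRI*, the EF-hand protein sorcin, had 164 ± 20.7 CPM in cNK cells and rose to 437 ± 87.4 CPM in lrNK cells (log2 fold change 1.41, SE 0.16, adjusted p = 1.84e-06). *UNC13D*, or Munc13-4, which primes cytotoxic granules for release, rose by 1.27 on the log2 scale (adjusted p = 6.79e-04), from 43.2 ± 14.6 to 104 ± 23.4 CPM, and *CALR*, the calcium buffer of the endoplasmic reticulum, rose too (log2 fold change 0.77, adjusted p = 0.00496). *EFHD2*, an EF-hand protein of lymphocytes also called swiprosin, fell to 116 ± 22.5 CPM from 268 ± 76.0 CPM (log2 fold change -1.21, SE 0.19, adjusted p = 1.08e-04), and *ESYT1*, which tethers the endoplasmic reticulum to the plasma membrane, fell as well (log2 fold change -0.94, adjusted p = 2.84e-04). *RCN2* (log2 fold change 0.54, adjusted p = 0.0268), *PRKCB* (-0.67, adjusted p = 0.0277) and *CPNE3* (-0.47, adjusted p = 0.0343) passed here, but each missed the threshold in a fit of only these 2 populations and without pig 1 (0.58, -0.66 and -0.47). *RCN2* also missed it without pig 3 (0.41) or 4 (0.49), and *PRKCB* without pig 2 (-0.67), 4 (-0.65) or 5 (-0.55). *CPNE3* missed it without pig 2 (-0.49), 3 (-0.37) or 5 (-0.51), without the lrNK library of pig 3 (-0.37) and with no filter on low counts (-0.49). The 3 calmodulin genes did not pass. Without the lrNK library of pig 3, 6 rose and 6 fell in lrNK against cNK cells. Against CD8αhigh liver NK cells 3 rose and 4 fell, which is 24.1% against 14.6% of all genes, and 4 rose and 8 fell without the lrNK library of pig 3. Between the CD8αhigh populations 0 of 29 passed in edgeR, 0 had an unadjusted p under 0.05 and 0 passed in DESeq2.

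The genes whose levels over the 15 libraries were most like those of the 4 genes with the clearest steps are given as a description, by Pearson's r of log2 CPM. The 15 libraries are 3 populations of the same 5 pigs, and all 4 genes lay lower in every lrNK library than in any other. Any gene with a like step therefore has a high r. As r within a population was not computed, these values do not show likeness beyond that step. For *S100A4* they were *DENND1B* (r = 0.998), *KLRG1* (0.994) and *ZNF683* (0.992). For *S100A6* they were *DENND1B* (0.993), *S100A4* (0.989) and *ZNF618* (0.987). *S100A10* was most like *DOCK5* (0.975), *CD226* (0.974) and *GNLY* (0.972), and *ANXA2* most like *SLC1A4* (0.971), *RMND5A* (0.960) and *SPN* (0.959).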

How the data were processed

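RNA was sequenced from 15 libraries, 3 sorted NK cell populations of each of 5 pigs, with a kit that reads messenger RNA from the 3′ end. The authors trimmed the reads with QuasR, aligned them with Rhisat2 to Sscrofa11.1 and deposited whole-number counts per gene, without normalization. The strand setting, the counting tool, its rule for reads with several alignments and the tool versions are not given in the sources used here. Each column could be tied by its name to a sample of 1 pig, and 0 columns went unused. The libraries held 2003499 to 5680221 counts each (median 3686363), which limits the precision for weakly expressed genes, and a count of 0 was read as allowing up to 3 counts.

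Counts were fitted in R 4.3.3 with edgeR 4.0.16 (TMM normalization, default filter on low counts, quasi-likelihood test, 1 fit of all 15 libraries), which tested 10939 of 29886 genes, with Benjamini-Hochberg adjustment and a threshold of 0.05. The SE was derived from the F statistic, as the size of the log2 fold change over its root. Pearson's r used log2 CPM with a prior count of 2. Coordinates come from a RefSeq table of the same assembly, which matched 29862 genes and gives no strand. Figures were drawn with matplotlib 3.10.9. On counts simulated for lrNK against cNK cells over 10939 genes, edgeR recovered 67 of 100 genes changed 4-fold and 26 of 100 changed 2-fold, with 10 false calls among 103. With the pig as a block it recovered 66 and 24, with 5 false calls among 95, and DESeq2 recovered 75 and 38, with 24 among 137. The simulated counts held no difference between pigs, so they cannot show what the block does in these data. They also held far fewer changed genes than the 1993 called in the data, so these rates may not carry over.

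The 10 genes and the lists of other family genes, partners, calcium sensors and cell markers were chosen with earlier results of these data known. The genes named are the 10, the other family genes with a mean of at least 1 CPM in any population, up to 4 partners and 4 sensors with the smallest adjusted p in each direction in lrNK against cNK cells, the 3 genes most like each of 4 of the 10, and markers. *S100A12*, *CACYBP*, *MYH9*, *EZR*, *TPM4*, *STIM2*, *MINDY1* and the calmodulin genes fall outside this rule and were named after their values were seen. The pairing by pig comes from the labels and the paper. After removal of population means, libraries of the same pig had a mean correlation of 0.107 and those of different pigs of -0.0265. No 2 libraries of a population agreed within sampling noise (chi-square per degree of freedom 9.82 to 51.3 over 30 pairs). Alternatives were DESeq2 1.42.0, DESeq2's size factors in edgeR, no filter, at least 10 counts in at least 5 libraries, the pig as a block, a fit without the population not compared, leaving out each pig and, chosen after seeing the data, leaving out the lrNK library of pig 3.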

Additional observations from a re-analysis of the deposited data

Results flagged for a closer look

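Among 46 groups of 5 libraries checked for a value far from the other 4, 3 stood apart, all in CD8αhigh liver NK cells, and chance marks about 1 in 20 groups. *S100A10* in pig 4 was at 731.1 CPM, with the other 4 pigs between 542 and 589 CPM. *ANXA9* in pig 1 was at 23.5 CPM, with the others between 6.20 and 9.76 CPM. *ANXA11* in pig 2 was at 352 CPM, with the others between 276 and 298 CPM.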

How the results depend on the processing

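All 288 alternative values of the log2 fold changes of the 8 detected genes of the 10 moved by less than the spread between pigs, while the calls of *S100A11* and *ANXA5* depended on single pigs as described. The count of genes differing between lrNK and CD8αhigh liver NK cells was 1601 in the fit of all libraries and between 1051 (without pig 5) and 1764 when a pig or the lrNK library of pig 3 was left out. Partners in that comparison went from 9 to between 5 (without pig 5) and 7, and calcium sensors from 7 to between 6 (without pig 5) and 12 (without the lrNK library of pig 3). Calcium sensors in lrNK against cNK cells numbered 8, and 5 in a fit of only these populations, and between 6 (without pig 1, 2, 4 or 5) and 12 (without the lrNK library of pig 3) on leaving out libraries. Genes differing between CD8αhigh liver NK and cNK cells numbered 7, and 24 with DESeq2, 18 without a filter, 16 in a fit of only these populations and between 0 (without pig 2) and 12 (without the lrNK library of pig 3) on leaving out libraries. With the pig as a block, the counts of genes were 2120 in lrNK against cNK cells (1993 without it), 1716 in lrNK against CD8αhigh liver NK cells and 8 between the CD8αhigh populations. In lrNK against CD8αhigh liver NK cells the block brought *STIM2* (log2 fold change 0.73, adjusted p = 0.0457) and *PRKCB* (-0.62, adjusted p = 0.0109) past the threshold in edgeR, and it changed no other call of the lists. The causes of these shifts were not tested. Depth limits most the genes with few counts, such as *ANXA1* and *ANXA6* in lrNK cells.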

Other observations

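Low-count genes of the annexin family stood outside the comparisons, because they did not pass the filter on low counts with all libraries in the fit. *ANXA13*, an annexin of the gut epithelium, had 3, 6, 24, 14 and 21 counts in the lrNK cells of pigs 1 to 5 and 0 counts in all CD8αhigh liver NK libraries. In cNK cells it had 7 counts in pig 1, 1 count in pig 5 and 0 in the others. *ANXA13* passed as higher in lrNK than in cNK cells when pig 1 was left out (adjusted p = 0.0135 in edgeR), and as higher than in CD8αhigh liver NK cells without pig 1 (adjusted p = 0.00456 in edgeR), with no filter (adjusted p = 0.00542 in edgeR) and with DESeq2 (adjusted p = 2.47e-04). *ANXA3* had 18 and 5 counts in the lrNK cells of pigs 1 and 2, 6 in the cNK cells of pig 4 and 0 in the other 12 libraries.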
